A study of Homo sapiens with 2 samples.

Results

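MIR34AHG is a long noncoding RNA gene whose transcript carries the hairpin of the microRNA miR-34a, and 8 protein-coding genes that have been reported as miR-34 targets were examined with it. The targets were MET, AXL, NOTCH1, NOTCH2, JAG1, E2F3, CCNE2 and SIRT1. These 9 genes were chosen by name from the 54261 genes of the count table, and all 9 passed the filter of a mean of at least 1 CPM (counts scaled to a common library size), as did 12620 genes in all. MIR34AHG was chosen because it was already known to be higher after SRSF2 knockdown in these data, so its values are a description, and the question asked was whether its 8 reported targets were lower in the same library. RKO, an established human colon carcinoma cell line, was compared after knockdown of SRSF2, a serine/arginine-rich splicing factor, by siRNA (si-SRSF2) and after transfection with a control siRNA (si-NC). Each group was 1 library of poly(A)-selected, strand-specific RNA-seq, so the differences have no check by replicates and conditions could not be tested against each other. Depth was 19931360 counts on 19882 genes for si-NC. It was lower for si-SRSF2, at 14512802 counts on 19467 genes. Ratios are given with 95% Clopper-Pearson intervals, which cover counting error only and not the variation between transfections. The log2 ratio itself was taken after adding a pseudocount of 0.5 CPM, whereas the interval has no pseudocount, which matters only for low counts.

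The miR-34 family is a set of microRNAs best known as tumor suppressors. A mature microRNA guides an Argonaute protein to messenger RNAs that pair with its seed, the bases near its 5′ end, and such messengers are translated less and degraded faster. In colon carcinoma cells the family is known for its link to cell cycle arrest and to the restraint of growth factor receptor and Notch signalling. Mature microRNAs are too short for the kind of library used here, so the host transcript was measured and the microRNA was not.

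The seed decides which messengers can pair, so the mature sequences are shown first. They are RefSeq sequences on GRCh38.p14, 5′ to 3′, with the seed (bases 2 to 8) in capitals.
hsa-miR-34a-5p: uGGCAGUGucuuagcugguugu
hsa-miR-449a: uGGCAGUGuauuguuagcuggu
hsa-miR-449b-5p: aGGCAGUGuauuguuagcuggc
hsa-miR-34b-5p: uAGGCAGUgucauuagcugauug
hsa-miR-449c-5p: uAGGCAGUguauugcuagcggcugu
The first 3 share the seed GGCAGUG, and the last 2 share AGGCAGU, the same run of bases moved by 1 position. MIR34B and MIR34C, the other genes of the family, MIR449A, MIR449B, MIR449C and MIR34A itself were all listed at 0 counts in both libraries. BTG4, the neighbour of MIR34B and MIR34C, was also listed at 0, and CDC20B, which hosts the miR-449 cluster, had 5 counts in each library. Of the host genes MIR34AHG and CDC20B, only MIR34AHG passed the filter. BTG4 lies on the opposite strand from MIR34B and MIR34C, and no host transcript of these was measured. By counting error alone, 0 counts allow up to 3 counts, or 0.151 CPM (si-NC) and 0.207 CPM (si-SRSF2). This is no limit where the counting could not assign reads, as for MIR34A, which lies inside an exon of MIR34AHG. Nor do 0 counts at MIR34B and MIR34C, entries of 84 and 77 bases, tell how much of a longer host transcript was present.

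The hairpin of miR-34a lies on the minus strand at chr1:9151668-9151777 of GRCh38. Its RefSeq sequence is shown because it is the part of the host transcript from which the microRNA is cut, with the mature miR-34a-5p in capitals.
MIR34A hairpin: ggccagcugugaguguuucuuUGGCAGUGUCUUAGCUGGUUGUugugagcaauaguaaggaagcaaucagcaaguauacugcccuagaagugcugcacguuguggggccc
In GENCODE release 44, MIR34AHG (ENSG00000228526.8) extends over chr1:9148011-9198906 on the minus strand. Its canonical transcript MIR34AHG-204 has 2 exons, from 9182007 to 9182392 and from 9148011 to 9151835. The hairpin is thus exonic, inside exon 2, which is 3825 bases long. Counts on MIR34AHG come from RNA in which an intact exon 2 could still be present, and they say nothing of how much of the hairpin was cut out.

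MIR34AHG went from 48 counts (2.41 CPM) in the control library to 171 (11.8 CPM) after knockdown. Its log2 ratio was 2.08, and the 95% Clopper-Pearson interval ran from 1.82 to 2.78. Without the pseudocount the si-SRSF2 level was 4.89 times that of si-NC. Only 7 of the 12620 genes had a higher ratio, and 4.18% of all genes were at least 1.5-fold and 0.848% at least 2-fold higher. In bulk RNA, a higher level in part of the cells and a smaller increase in every cell cannot be told apart. The 5 genes with the ratio nearest to it over these 2 libraries were SYCP2L (2.17), FLG-AS1 (1.93), DUSP16 (1.88), DDT (2.28) and PTPRK (2.35). Each of these had under 10 counts in si-NC, so MIR34AHG was the best counted of the group. These 5 had under 0.5 CPM in si-NC and passed the filter only through si-SRSF2, where they were higher. Their ratios therefore depend strongly on the pseudocount.

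Among the 12 genes named as microRNA hosts (symbols of the form MIR...HG) that passed the filter, MIR34AHG had the highest ratio. MIR17HG, the host of the miR-17-92 cluster, was next with 82 and 130 counts and a log2 ratio of 1.04 (0.71 to 1.54). MIR4458HG had 0.57, MIR100HG 0.52, MIRLET7BHG 0.51, MIR155HG 0.46, MIR4435-2HG 0.22 and MIR210HG 0.13. MIRLET7BHG and MIR210HG had intervals that included 0, which left 6 of the 12 above 0, beside 21.0% of all genes. MIR34AHG was among the 6 by the way it was chosen, so that share is no independent result. The other 4 were lower, with MIR4697HG at -0.02, MIR924HG at -0.36, MIR31HG at -0.48 and MIR762HG at -0.64, of which only MIR762HG had an interval below 0 (26.7% of all genes). Among the 11 without MIR34AHG, which was chosen for its ratio, the middle value was the 0.22 of MIR4435-2HG, beside -0.02 over all genes.

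Beyond the overlapping antisense gene described next, all 9 neighbours of MIR34AHG examined on chromosome 1, from SLC2A5 to CTNNBIP1, passed the filter, 4 were higher and 5 lower, where 46.2% and 53.8% of all genes were, and their log2 ratios ran from -0.58 to 0.23. The interval was below 0 for 3 (H6PD, SPSB1 and PIK3CD) and above 0 for 1, beside 26.7% and 21.0% of all genes. GPR157, an orphan receptor gene 18.9 kb away with an 8mer for miR-34a in its 3′ UTR, had 109 and 68 counts and a log2 ratio of -0.20 (-0.68 to 0.23). H6PD, an enzyme of the endoplasmic reticulum 35.9 kb away on the other side, had 896 and 433 counts and a ratio of -0.58 (-0.76 to -0.42), or 66.4% of the si-NC level without the pseudocount. It has 3 matches of at least 7 bases, CTNNBIP1 has 2 and TMEM201 has 1. SPSB1 had -0.30, PIK3CD -0.26 and TMEM201 -0.09. CLSTN1 (0.23), SLC25A33 (0.17), SLC2A5 (0.16) and CTNNBIP1 (0.03) were on the other side of 0, and of these 4 only CLSTN1 had an interval that excluded it.

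On the opposite strand, the first exon of MIR34AHG is overlapped by LNCTAM34A, listed in the count table under its older name LOC102724571. It went from 3 counts to 10, with a mean of 0.42 CPM, and was thus under the filter. The CPM ratio was 4.58, and the log2 ratio with the pseudocount was 0.87. Its log2 interval, from 0.24 to 4.69, contains the ratio of MIR34AHG but is so wide that this says little. The strand setting of the counting is not given in the sources used here, so reads in the shared stretch could belong to either gene.

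**Figure D1:**
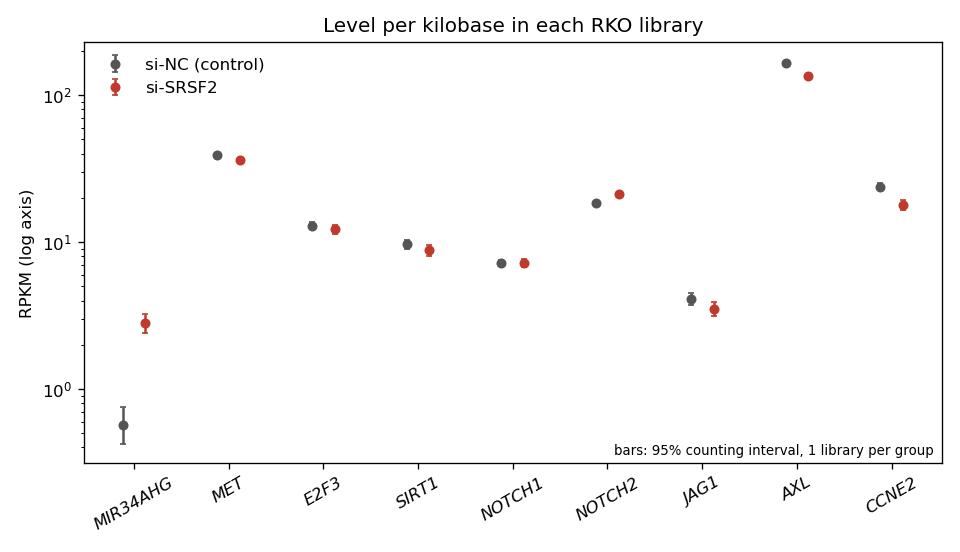
Levels of MIR34AHG and the 8 reported targets as RPKM, CPM per kilobase of canonical transcript (log axis), in the si-NC library (grey) and the si-SRSF2 library (red), with bars for 95% Poisson counting intervals. MIR34AHG goes from 0.572 to 2.80 RPKM, while the targets run from 75.2% (CCNE2) to 115.9% (NOTCH2) of their si-NC level.

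The targets differed widely in level, which was compared per kilobase of canonical transcript as RPKM. In si-NC, AXL was the most abundant with 166.7 RPKM, followed by MET with 39.1, CCNE2 with 23.8 and NOTCH2 with 18.3. E2F3 had 12.9, SIRT1 9.65, NOTCH1 7.22 and JAG1 4.10 RPKM. MIR34AHG was the lowest of all with 0.572 RPKM (95% Poisson interval 0.422 to 0.758). The counting intervals of neighbours in this order did not overlap. In si-SRSF2 the order was the same except that NOTCH2 (21.2) stood above CCNE2 (17.9), and the interval of MIR34AHG, 2.39 to 3.25 at 2.80 RPKM, overlapped that of JAG1, 3.13 to 3.93. These levels assume the canonical transcript of each gene.

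All 8 targets carry at least 1 seed match of 7 or 8 bases for miR-34a-5p in the 3′ UTR of their canonical transcript. Of all protein-coding genes matched to the annotation, 21.1% do, but reported targets were often found by such matches, so this is no independent result. The letters searched, on the strand of the transcript, were CACTGCCA (8mer, which holds both of the next), CACTGCC (7mer-m8) and ACTGCCA (7mer-A1). The sites are shown because they are what the microRNA would pair with, read from GENCODE release 44 transcripts, 5′ to 3′, with the match in capitals.
AXL 8mer: aggatccaagctaagCACTGCCA
E2F3 8mer: caattaatttgtaaaCACTGCCA
MET first 7mer-m8: tgtccaatggttttttCACTGCCt
MET second 7mer-m8: agaattagatacttgtCACTGCCt
NOTCH1 first 7mer-m8: ttattttacacagaaaCACTGCCt
NOTCH1 second 7mer-m8: cttttctggggaaagaCACTGCCt
NOTCH2 7mer-m8: gtgatgaggaggacaaCACTGCCt
JAG1 first 7mer-m8: cagaccgcgggCACTGCCg
JAG1 second 7mer-m8: gatttgccatagagtaCACTGCCt
SIRT1 first 7mer-A1: tttccacaagtattaaACTGCCA
SIRT1 second 7mer-A1: cccagctaggaccattACTGCCA
CCNE2, the third target with an 8mer, has it 123 bases after the stop codon, and AXL has its own at base 44, whereas that of E2F3 lies at base 2730 of a 3284-base 3′ UTR. On GRCh38 the AXL site is at chr19:41259948-41259955, that of E2F3 at chr6:20493160-20493167 and the first of MET at chr7:116796175-116796181. The NOTCH2 site is at chr1:119912834-119912840 and the first of JAG1 at chr20:10639480-10639486. MET, NOTCH1, JAG1 and SIRT1 have 2 matches each, and NOTCH2 has a further match of 6 bases.

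**Figure D2:**
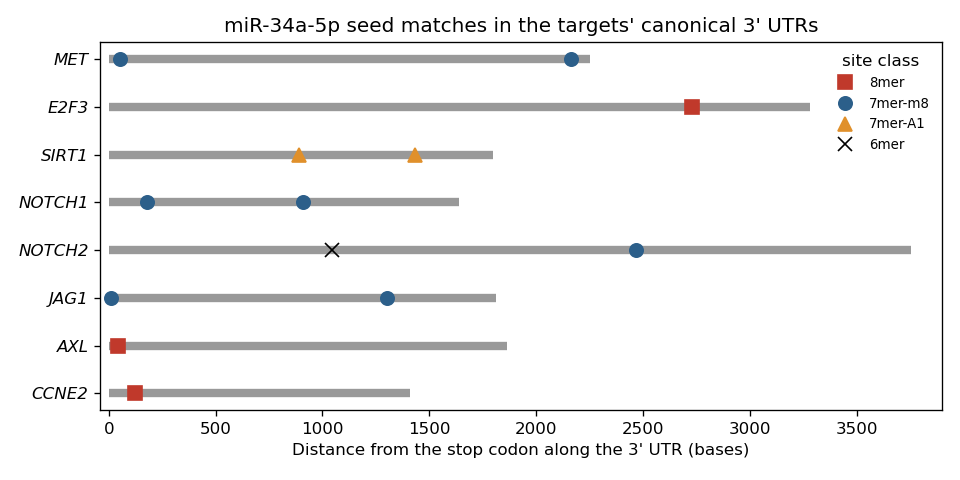
Matches to the miR-34a-5p seed along the canonical 3′ UTR of each target; the x axis is the distance from the stop codon in bases, grey bars span the 3′ UTR and symbols give the site class. AXL, CCNE2 and E2F3 have an 8mer, and the other 5 have 7-base matches.

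Of the 8 targets, 7 had a log2 ratio below 0 in si-SRSF2 and 1 above it, with a median of -0.12, but NOTCH1, one of the 7, lay so close to 0 that 3 other scalings put it above 0 and left 6. Over all 12620 genes 53.8% were below 0 and 46.2% above it, and the median was -0.02. The differences were small: none of the 8 was 1.5-fold lower, as 3.52% of all genes were, and none was 2-fold lower, as 0.499% were. The counting interval was wholly below 0 for 4 (CCNE2, AXL, JAG1 and MET), included 0 for 3 (SIRT1, E2F3 and NOTCH1) and was wholly above 0 for NOTCH2. Intervals wholly above 0 were found for 21.0% of all genes. Those wholly below 0 were found for 26.7% of all genes, and for 33.2% of the 7530 genes with at least as many counts as JAG1, the least counted of the 8. The part of miR-34a in any of these values was not tested.

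**Figure D3:**
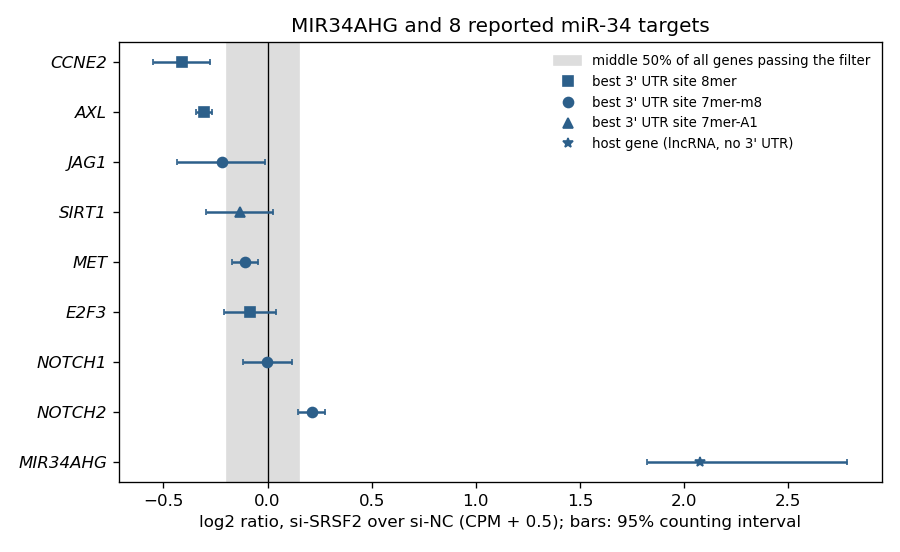
Log2 ratio (si-SRSF2 over si-NC) for MIR34AHG and its reported targets, with bars for the 95% Clopper-Pearson interval (without the pseudocount) and the grey band for the middle 50% of all genes passing the filter, from -0.19 to 0.15. MIR34AHG stands at 2.08 and the targets between -0.41 and 0.21.

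Among the cell cycle targets, CCNE2, a cyclin E that activates CDK2 at the entry into S phase, had the lowest ratio of the 8. Its 1266 counts in the control library (63.5 CPM) stood against 693 after knockdown (47.7 CPM). The log2 ratio was -0.41 (-0.55 to -0.28), which left 75.2% of the si-NC level, and 8.43% of all genes had a ratio as low or lower. Its paralogue CCNE1, which has no such match, had 753 and 503 counts and a ratio of -0.12 (-0.29 to 0.04). The ratio of CCNE2 to CCNE1 counts, which does not depend on library scaling, went from 1.68 to 1.38, a log2 difference of -0.29 (95% conditional exact interval -0.50 to -0.07).

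E2F3, a transcription factor that activates S phase genes, had 1299 and 893 counts, or 65.2 and 61.5 CPM. Its log2 ratio of -0.08 (-0.21 to 0.04) was not distinguishable from 0 at this depth. The 3′ UTR of E2F3 holds an 8mer. E2F7, a repressor and the most counted other E2F, had 2785 and 1819 counts, and the difference between both ratios was 0.07 (-0.08 to 0.23). Over 18 genes of the E2F and cyclin E group that passed the filter, 11 were lower and 7 higher, and the median was -0.06. The interval was below 0 for 5 (27.8%) and above 0 for 4 (22.2%), close to the 26.7% and 21.0% of all genes. E2F5, a further E2F with an 8mer and a reported target, was the lowest with 471 and 213 counts and -0.67 (-0.93 to -0.45). RB1, the retinoblastoma protein that holds E2Fs in check, had -0.37 and CDK2 -0.29, neither with a match of 7 bases. At the other end were FBXW7, which marks cyclin E for degradation, with 0.56, E2F8 with 0.35, CDKN1A with 0.22 and E2F6 with 0.17.

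Of the receptor tyrosine kinases, AXL was both the most abundant target and the best counted. AXL, a receptor of the TAM family, went from 15672 counts (786.4 CPM) to 9245 (637.0 CPM) after knockdown. The log2 ratio was -0.30 (-0.34 to -0.27), which left 81.0% of the si-NC level. TYRO3, its most counted relative, had 1173 and 782 counts and -0.13 (-0.26 to 0.00), and the difference between AXL and TYRO3 was -0.18 (-0.31 to -0.04). MERTK, the third member, named after its values were seen, had 247 and 153 counts and -0.22 (-0.53 to 0.06). Their ligands were not lower, with GAS6 at 0.00 and PROS1 at 0.22 (0.13 to 0.31).

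MET, the receptor of hepatocyte growth factor, had 5313 and 3592 counts, or 266.6 and 247.5 CPM, and a log2 ratio of -0.11 (-0.17 to -0.05). It has 2 sites, and its level in si-SRSF2 was 92.8% of that in si-NC. MST1R, the paralogue of MET without a 7-base match, was lower than MET with 980 and 544 counts and -0.39 (-0.55 to -0.24). Relative to MST1R, MET was higher in si-SRSF2 by 0.28 (0.12 to 0.45). HGF, its ligand, was abundant in these cells with 12307 and 9617 counts and 0.10 (0.06 to 0.14). Over 14 measured genes of the MET and TAM group, 10 were lower and 4 higher, with a median of -0.12. The interval was below 0 for 7 (50%) and above 0 for 2, HGF and PROS1 (14.3%), beside 26.7% and 21.0% of all genes. SPINT1, an inhibitor of the protease that activates HGF, had 0.06 (-0.04 to 0.16). GAB1, an adaptor that carries MET signals, was the lowest with 344 and 164 counts and -0.59 (-0.89 to -0.34), followed by MST1 with -0.42. GAB1 and HGF each have 1 match of 7 bases, while SPINT1 and MST1 have none.

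The Notch receptors and their ligand did not share a direction. NOTCH1 had 1376 and 1002 counts, or 69.04 CPM in both libraries, with an interval of -0.12 to 0.12. NOTCH2 had 4170 and 3519 counts, or 209.2 and 242.5 CPM, and a log2 ratio of 0.21 (0.15 to 0.28), at percentile 81.1 of all genes. Relative to NOTCH2, NOTCH1 was lower by 0.21 on the log2 scale (interval -0.35 to -0.08). NOTCH3, named after its values were seen and with an 8mer in its 3′ UTR, was measured at 18 and 27 counts, or 0.90 and 1.86 CPM. Its ratio of 0.75 (0.13 to 1.99) was the highest of the pathway. NOTCH3 passed the filter only through si-SRSF2, where it was higher, so this rank is no independent result. NOTCH2 has near-identical copies, of which NOTCH2NL was listed with 82 and 74 counts and 0.28 (-0.16 to 0.78), so its counts are uncertain to the extent that the counting split reads between them.

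JAG1, a ligand of the Notch receptors, went from 485 counts (24.3 CPM) to 303 (20.9 CPM). The log2 ratio of -0.22 had an interval that reached close to 0 (-0.43 to -0.01) and that included 0 with upper-quartile scaling. JAG2, which has no match, had 2170 and 1510 counts and -0.07 (-0.16 to 0.03), and the difference of -0.16 between the ligands was within counting error (-0.39 to 0.08). Over 24 Notch pathway genes that passed the filter, 13 were lower and 11 higher, 2 with an interval below 0 and 6 above, with a median of -0.02. These are 8.33% and 25% of the 24, beside 26.7% and 21.0% of all genes. The 6 above include NOTCH3, which passed the filter only through si-SRSF2. MAML1, a coactivator of the Notch complex, was the lowest with 1642 and 819 counts and -0.54 (-0.67 to -0.42), and NUMBL, a relative of the Notch inhibitor NUMB, had -0.10 (-0.31 to 0.10). The γ-secretase subunits NCSTN (0.26) and PSENEN (0.17) and the DNA-binding partner RBPJ (0.15) were higher, all with intervals above 0. Of the Notch target genes, NRARP had -0.19 (-0.45 to 0.07). HES4 and HEY1, named after their values were seen, had 0.05 (-0.20 to 0.30) and -0.44 (-1.30 to 0.18), and HES1 was under the filter.

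SIRT1, an NAD-dependent protein deacetylase, had 790 and 524 counts, or 39.6 and 36.1 CPM. Its log2 ratio was -0.13 (-0.30 to 0.03), not distinguishable from 0 at this depth. All 6 sirtuins that passed the filter had a ratio below 0, as 53.8% of all genes had, with a median of -0.22. SIRT5 (-0.45), SIRT3 (-0.39) and SIRT6 (-0.31) had intervals below 0, as 26.7% of all genes had, and of these 3 only SIRT6 has a 7-base match. SIRT4 and SIRT7 both had -0.08. The difference between SIRT1 and SIRT7, its most counted relative, was -0.05 (-0.30 to 0.20).

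The 7 comparisons with a relative were chosen after the values were seen. In 6 of them the relative has no match of 7 bases. In 2 of these 6 the target was lower than its relative beyond counting error (CCNE2 and AXL), in 1 higher (MET) and in 3 neither (E2F3, JAG1 and SIRT1). In the seventh, NOTCH1 and NOTCH2 are both reported targets. The 3 targets with an 8mer, CCNE2, AXL and E2F3, had ratios from -0.41 to -0.08, and the 8 targets from -0.41 to 0.21.

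A wider list of 37 other genes reported as miR-34 targets was counted in the same way. Of these, 29 passed the filter, 20 were lower and 9 higher, and the median log2 ratio was -0.08. The interval was below 0 for 14 of the 29 (48.3%) and above 0 for 6 (20.7%), beside 26.7% and 21.0% of all genes and 33.2% and 23.9% of genes counted at least as deeply as JAG1. Some of the 14, E2F5, BCL2, SNAI1 and AXIN2 among them, had fewer counts than JAG1. The shares for deeply counted genes are thus not matched in depth to this list. Besides E2F5, the lowest were BCL2, an inhibitor of apoptosis (351 and 168 counts, -0.58), SNAI1, a factor of the epithelial-mesenchymal transition (187 and 93, -0.52), and AXIN2, a Wnt feedback gene (158 and 88, -0.36). The highest was HDAC1, a histone deacetylase, with 2148 and 2797 counts and 0.84 (0.76 to 0.92), followed by FOSL1 (0.31), CD44 (0.17) and TGIF2 (0.15). All 4 of these have a match of 7 or 8 bases in the 3′ UTR, as do E2F5, BCL2, SNAI1 and AXIN2. The 25 genes with such a match had a median of -0.08 and the 4 without one -0.03. PPP1R10 was listed at 0 in both libraries.

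**Figure D4:**
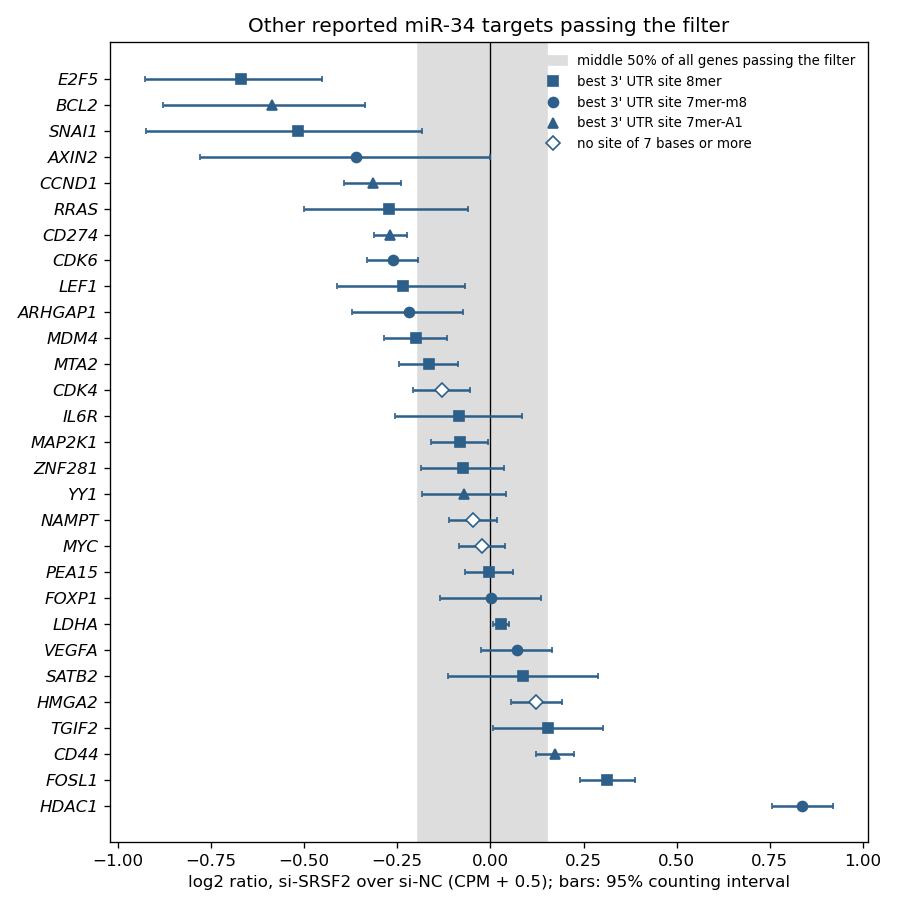
Log2 ratio (si-SRSF2 over si-NC) for the 29 other reported miR-34 targets that passed the filter, with 95% Clopper-Pearson intervals, symbols for the best 3′ UTR site and the grey band for the middle 50% of all genes. The genes run from E2F5 at -0.67 to HDAC1 at 0.84, and 20 of 29 lie left of 0.

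The same question was put to all genes. Of 10904 genes with an annotated 3′ UTR that passed the filter, 646 had an 8mer, 1251 a 7mer-m8 and 672 a 7mer-A1 as their best match, and 7145 had none of at least 6 bases. The median log2 ratio was -0.047 for 8mer genes, -0.039 for 7mer-m8, -0.057 for 7mer-A1, -0.054 for the 1190 genes with a match of only 6 bases and -0.028 without a match. With 1, 2 or at least 3 matches of 7 bases or more it was -0.045, -0.049 and -0.050. These differences between medians were not tested. An interval below 0 was found for 33.6% of 8mer genes, 28.4% of 7mer-m8 genes, 34.1% of 7mer-A1 genes, 32.8% of genes with only a 6-base match and 27.7% of genes without a match.

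Genes with a match had longer 3′ UTRs, with a median of 2706 bases for 8mer genes against 899 without a match, so the genes were also divided by 3′ UTR length into 4 equal groups. In the longest group, from 2813 bases, the median was -0.039 for 315 genes with an 8mer and -0.057 for 1498 genes with no match of 7 bases. In the next group, from 1365 bases, the medians were -0.052 for 201 genes and -0.045 for 1965. From 539 bases they were -0.046 for 96 and -0.023 for 2290. In the shortest group they were -0.134 for 34 genes and -0.018 for 2582. The 8mer genes were thus lower in 3 of the 4 groups and higher in the longest, which held 315 of the 646. The share with an interval below 0 went the same way. From the shortest group to the longest it was 38.2%, 33.3%, 35.3% and 32.1% with an 8mer, and 23.4%, 27.3%, 30.3% and 36.0% with no match of 7 bases.

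**Figure D5:**
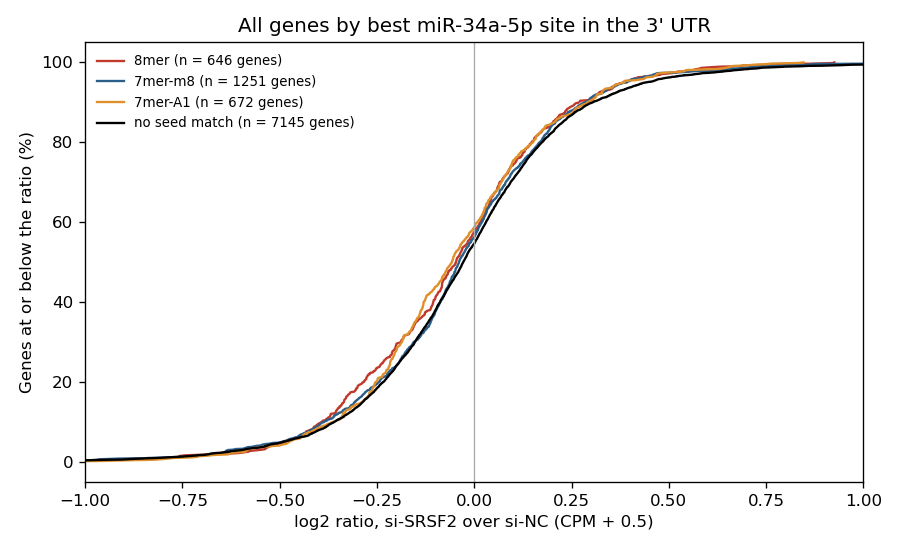
Cumulative share of genes (percent) by log2 ratio (si-SRSF2 over si-NC), for genes grouped by their best miR-34a-5p match in the 3′ UTR. The 4 curves lie close together, with medians from -0.057 to -0.028.

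Among the 587 genes with an 8mer and a mean of at least 5 CPM, the lowest were ABR (185 and 53 counts, -1.24), NAGPA (186 and 64, -1.002), MTMR10 (140 and 48, -0.98), GSDMB (340 and 124, -0.96) and ZNF672 (5130 and 1985, -0.91). ZNF672, a zinc finger gene, was the best counted of these, with an interval of -0.99 to -0.84. The highest were ZNF324B (0.87), PPP1R3E (0.69), ZDHHC16 (0.69), ZSCAN29 (0.60) and VAMP2, a vesicle fusion protein with 3 matches (903 and 988 counts, 0.58).

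The machinery that makes and uses microRNAs was measured too, since it acts between a host transcript and its targets. All 16 genes passed the filter, 10 were lower and 6 higher, 7 with an interval below 0 and 3 above, with a median of -0.10. The shares were 43.8% below and 18.8% above, beside 26.7% and 21.0% of all genes and 33.2% and 23.9% of genes counted at least as deeply as JAG1. Not all 16 genes were counted that deeply. AGO2, the Argonaute that can cut its target, was the lowest with 17266 and 8076 counts and a log2 ratio of -0.64 (-0.68 to -0.60). DICER1, which cuts hairpin precursors into mature microRNAs, had 3763 and 1889 counts and -0.54 (-0.62 to -0.46). TNRC6A, a partner of Argonaute in silencing, had -0.47 (-0.60 to -0.34), and PRKRA, a partner of Dicer, -0.30. DROSHA, which frees the hairpin from the primary transcript, had 889 and 720 counts and 0.15 (0.01 to 0.30), with DDX17 at 0.14, its cofactor DGCR8 at 0.10 and RAN, which takes part in the export of precursors from the nucleus, at 0.10 (0.04 to 0.16). Of the genes named here, only AGO2, with 2 matches of 7 bases, and DDX17, with an 8mer, have a match of 7 bases or more. The part of the machinery in the levels of the targets was not tested.

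Facts of the whole libraries that touch these values are few. SRSF2, the targeted gene, went from 1964 counts to 713, with a log2 ratio of -0.997 (-1.13 to -0.88). Of 9 epithelial markers, EPCAM, KRT8, KRT18 and CDX2 passed the filter, while KRT19, CDH1, CLDN4, VIL1 and LGALS4 had 10 counts or fewer in each library. KRT8 was higher in si-SRSF2 (27.4 and 42.6 CPM, 0.62), while EPCAM (0.16), KRT18 (0.05) and CDX2 (0.03) had intervals that included 0. The summed level of all 9 went from 79.5 to 97.4 CPM, most of it by KRT8. None of 10 markers of immune, stromal and endothelial cells passed the filter, 4 were at 0 in both libraries, and their summed level was 1.35 and 1.31 CPM.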

How the data were processed

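RNA from 1 si-NC and 1 si-SRSF2 library of RKO cells was analysed. The authors made strand-specific mRNA libraries, read them as 150 bp pairs, aligned clean reads to GRCh38 with Hisat2 (version 2.0.4 in the submitters' processing notes) and counted them per gene with HTSeq. The deposited table holds raw counts, 1 row per gene symbol, not normalized. The annotation named is Ensembl 100, while 16148 of the 54261 symbols have NCBI's LOC form.

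TMM factors from edgeR 4.0.16 (R 4.3.3) gave CPM, 0.5 CPM was added before log2 ratios were taken, and the filter kept means of 1 CPM or more. Intervals were 95% Clopper-Pearson intervals of the counts, or Poisson intervals for single levels, in SciPy 1.17.1. These, and the 3-count limit, describe counting error alone. With 1 library per group no test was run. The calculations were tested on simulated data.

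The 3′ UTRs, lengths and seed matches came from GENCODE release 44 on GRCh38, with 34408 genes matched by symbol and 4670 by a RefSeq synonym or gene ID. MicroRNA sequences are from RefSeq (GRCh38.p14). One further gene list and a promoter motif are not reported here. The 9 genes and all lists were chosen from general knowledge with earlier results of these data known. Named were the 9 genes and SRSF2. From lists with at most 12 measured genes all were named, and from longer ones the 4 highest and 4 lowest ratios among genes averaging 5 CPM or more. The 5 highest and lowest 8mer genes and the 5 genes nearest to MIR34AHG were also named. Other settings tried were scaling by upper-quartile factors, by total counts or by DESeq2 1.42.0 size factors, a pseudocount of 2 or 0.1 CPM, a minimum of 5 CPM or none, leaving out mitochondrial and the 20 most abundant genes, the longest 3′ UTR and any match of 7 bases.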

Additional observations from a re-analysis of the deposited data

How the results depend on the processing

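The 8 reported targets kept their values within counting error under every scaling, pseudocount and filter tried. Their median log2 ratio ran from -0.12 to -0.10, and 7 of the 8 were lower, or 6 with DESeq2 size factors, total counts or upper-quartile factors. The difference was NOTCH1, whose ratio lay at -9.5e-05 and turned to 0.00024, 0.00012 and 0.024 under these scalings, within counting error of 0 each time. With upper-quartile factors the median of all genes moved from -0.02 to 0.00, and the interval was below 0 for 3 targets in place of 4, without JAG1, beside 23.7% of all genes in place of 26.7%. The log2 ratio of MIR34AHG was 1.64 with a pseudocount of 2 CPM, outside its interval, and at most 2.24 otherwise. A larger pseudocount shrinks the ratio of a gene with few counts by its construction. The median of the other reported targets ran from -0.11 to -0.06 and that of 8mer genes from -0.05 to -0.02. No other of the 9 genes changed its sign. No paired analysis was possible because there was 1 library per group, and for the same reason none could be left out. Depth limits MIR34AHG most, with 48 counts in si-NC, and then JAG1, with 485 and 303.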
